A study of Mus musculus with 24 samples.

Results

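The genes described here are 8 killer cell lectin-like receptor (Klr) genes that lie outside the Ly49 (Klra) family: Klrb1c, Klrb1f, Klrd1, Klrc1, Klrc2, Klrk1, Klre1 and Klrg1. They were chosen by symbol and are 8 of the 24447 rows of a single-cell count matrix. Single NK1.1+CD3e+ cells were sorted from the liver of C57BL/6 mice aged 8 to 10 weeks and picked by hand for sequencing with unique molecular identifiers (UMIs). The 3 groups were WT mice, Jα18-deficient mice (Jα18-/-), without the receptor segment that the type I NKT lineage uses, and CD1d-deficient mice (CD1d-/-), without the antigen-presenting molecule on which type I and type II NKT cells depend. The methods name C57BL/6 for the WT mice, which were bought. Both knockout strains came from another laboratory, and the methods do not name their background. All 3 groups share the tissue and the sort, and the matrix holds 623 WT, 725 Jα18-deficient and 387 CD1d-deficient cells. The comparisons address what natural killer (NK) receptors these cells carried when type I, or type I and type II, NKT cells were missing.

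The labels list 24 libraries, 8 per genotype, but the cell names carry only a genotype and a number, so each genotype was 1 pool and no test between genotypes was possible. The number and sex of the mice are not given in the sources used here. The sort required NK1.1 protein, the product of Klrb1c, so cells without it were not collected and the range of Klrb1c is limited by the gate. The sort keeps any T cell that carries NK1.1, whatever its receptor, and loses NKT cells that lack it. The methods and discussion of the study add that the Jα18-deficient strain as first made lacks further Jα elements, and that the CD1d-deficient mice keep the CD1d2 gene.

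Klr proteins are C-type lectin-like receptors of NK cells and of some T cells, and most of their genes lie together in the NK gene complex. Inhibitory members carry an immunoreceptor tyrosine-based inhibitory motif (ITIM) in the cytoplasmic tail and recruit phosphatases, whereas activating members signal through adaptor proteins such as DAP10, DAP12 and the Fc receptor gamma chain. CD94, the product of Klrd1, pairs with NKG2A (Klrc1) to inhibit or with NKG2C (Klrc2) to activate, and both pairs read the non-classical MHC molecule Qa-1. In the liver, NK cells and NK1.1+ T cells are abundant and many of them display these receptors.

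All 8 genes were on chromosome 6 of the NCBIM37 (mm9) annotation. Klre1 (129527911 to 129535842, plus strand), Klrd1 (129541800 to 129548793, plus), Klrk1 (129560341 to 129573882, minus), Klrc2 (129597514 to 129610707, minus) and Klrc1 (129616033 to 129628991, minus) were neighbours in that order. Klrb1c (128728503 to 128739233, minus) and Klrb1f (128995919 to 129007489, plus) lay before them and Klrg1 (122220614 to 122232900, minus) farther away. No exon of the 8 genes overlapped an exon of another gene on either strand.

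The coding starts of NKG2A, NKG2C and KLRG1 are shown because they set the inhibitory members apart from NKG2C. All are GENCODE M1 transcripts on the minus strand of NCBIM37, written 5′ to 3′ from the start codon, and capitals mark the ITIM codons. Klrc1 is chr6:129628875-129628928, with the motif from codon 6. Klrg1 is chr6:122232776-122232829, with the motif from codon 5. Klrc2 is chr6:129610521-129610574 and had no ITIM in its first 80 codons.
Klrc1: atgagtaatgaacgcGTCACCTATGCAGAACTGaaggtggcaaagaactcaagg
Klrg1: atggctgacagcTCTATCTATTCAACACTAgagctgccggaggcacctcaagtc
Klrc2: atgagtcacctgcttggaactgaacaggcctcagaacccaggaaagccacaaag
The motif was searched in the first 80 codons of the longest coding transcript of 21823 genes and was found in 1771 of them (8.12%), so a match alone is common. Klrb1c also had a match, at codon 53, which by itself does not class it as an inhibitory receptor. Klrb1f, Klrd1, Klrk1 and Klre1 had none.

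Klrc1 and Klrc2 share long stretches, and reads from these could have been counted for either gene or for neither. Of the 100-base windows of the Klrc2 transcripts, 8.67% were also in Klrc1 and 5.45% in Klrc3, and 14.6% of the windows of Klrc1 were also in Klrc2. The longest coding run common to Klrc1 and Klrc2, 122 bases at chr6:129627221-129627784 on the minus strand and interrupted there by an intron, is shown as a stretch in which their reads are alike, although a read that reaches past it could be placed.
Klrc1 and Klrc2: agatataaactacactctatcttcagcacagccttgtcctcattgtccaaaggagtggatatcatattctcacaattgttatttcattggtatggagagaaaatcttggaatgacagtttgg
Klrc2 had far fewer UMIs than Klrc1 in every pool, so its values are uncertain. Klrb1c shared 0.295% of its windows with Klrb1a, and the other 5 genes shared none with the Klr genes compared.

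The pools summed to 34102694 UMIs (WT), 60484252 (Jα18-deficient) and 14536585 (CD1d-deficient), with medians per cell of 40467, 46670 and 13508 UMIs. No cell name was used more than once and no pair of cells had identical counts. The 5 T cell markers were present in every pool, at 3710 to 4087 summed CPM (counts scaled to 1e6 UMIs). The 6 myeloid markers summed to 82.9 CPM in WT, 18.6 CPM in Jα18-deficient and 603 CPM in CD1d-deficient cells, nearly all from Lyz2, with Csf1r and the others low or at 0. B cell, hepatocyte and endothelial lists summed to at most 14.7 CPM. The CD1d-deficient pool therefore differed from the others in depth and in Lyz2 as well as in genotype, and the part of these in the results was not tested.

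By summed UMIs, 7 of the 8 genes, all but Klrg1, were lowest in WT, higher in Jα18-deficient and highest in CD1d-deficient cells. In cells thinned to equal depth this order did not hold for Klrc2, at 10.3 CPM in WT and 8.86 CPM in Jα18-deficient cells. Klrc2 kept the order by the mean of each cell's own CPM (8.46, 11.9 and 26.2 CPM), and it was scarce by either measure. By the mean of each cell's own CPM, Klrb1f was nearly level between WT (52.7 CPM) and Jα18-deficient cells (53.0 CPM). Each level below is the CPM of the summed UMIs of a pool with an exact Poisson 95% interval. These intervals, like the binomial intervals given for shares, cover counting error only. They say nothing of how mice or libraries vary. Order between pools is a description of these 3 pools.

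**Figure D1:**
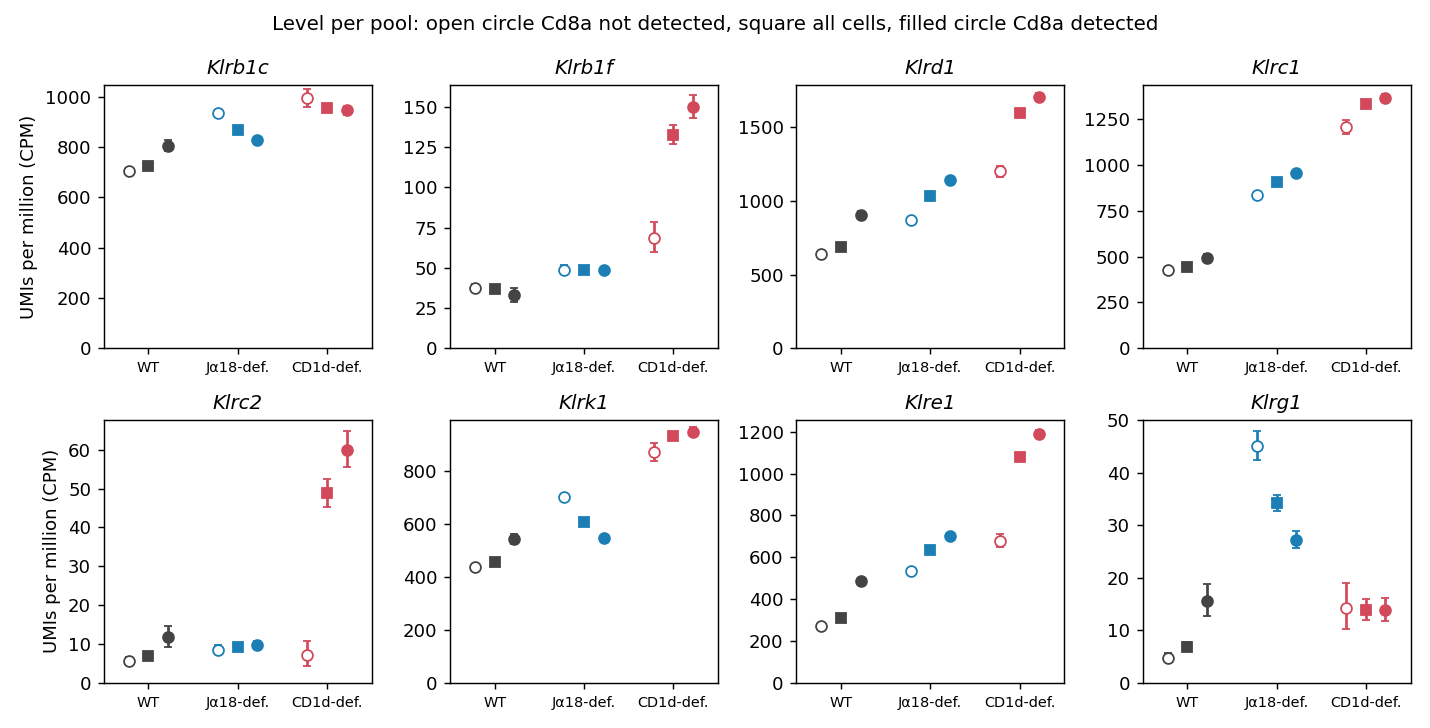
Level of each gene in CPM (y axis, from 0) in the WT, Jα18-deficient and CD1d-deficient pools (x axis), for cells without a Cd8a UMI (open circles), all cells (squares) and cells with a Cd8a UMI (filled circles), with Poisson 95% intervals. Klrc1 in all cells stands at 442, 910 and 1334 CPM in the 3 pools, whereas Klrg1 is highest in the Jα18-deficient pool.

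Of the genes for NK1.1 and its relatives (NKR-P1), Klrb1c, the NK1.1 antigen itself, differed least. It was at 723 CPM (714 to 732) in WT, 869 CPM (861 to 876) in Jα18-deficient and 956 CPM (941 to 973) in CD1d-deficient cells. The highest pool was 1.32 times the lowest. Klrb1f, an activating relative, was at 36.5 CPM (34.5 to 38.6), 48.6 CPM (46.9 to 50.4) and 133 CPM (127 to 139) in the same order, so the CD1d-deficient pool stood 3.63-fold above WT. Most UMIs of Klrb1f lay in few cells, since the top 5% of cells held 81.4%, 79.99% and 74.4% of them. At least 1 UMI was found in 15.4%, 26.9% and 28.7% of cells.

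The chains of the CD94/NKG2A receptor were both lowest in WT. Klrd1 was at 689 CPM (680 to 698) in WT, 1036 CPM (1028 to 1044) in Jα18-deficient and 1601 CPM (1581 to 1622) in CD1d-deficient cells. Klrc1 was at 442 CPM (434 to 449), 910 CPM (902 to 917) and 1334 CPM (1315 to 1353). The difference lay in the typical cell as well as in the sum, since the median cell had 36.6 CPM of Klrc1 in WT, 602 CPM in Jα18-deficient and 815 CPM in CD1d-deficient cells. For Klrd1 the median cell had 151, 705 and 1129 CPM.

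Klrc2 was scarce, with 6.83 CPM (5.98 to 7.77) in WT, 9.34 CPM (8.59 to 10.1) in Jα18-deficient and 48.8 CPM (45.2 to 52.5) in CD1d-deficient cells. The CD1d-deficient value came from few cells, with 95.6% of 709 UMIs in the top 5% of cells and 166 UMIs in the highest cell. Thinned to equal depth it was 25.1 CPM, against 10.3 CPM in WT and 8.86 CPM in Jα18-deficient cells.

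Klrk1, which encodes the activating receptor NKG2D, was at 457 CPM (449 to 464) in WT, 606 CPM (600 to 612) in Jα18-deficient and 930 CPM (915 to 946) in CD1d-deficient cells. Klre1, whose product pairs with the Klri chains, was at 311 CPM (305 to 317), 636 CPM (630 to 642) and 1081 CPM (1064 to 1098). Both thus kept the same order, and the median cell had 8.55 CPM of Klre1 in WT against 341 and 764 CPM in the other pools. Klrg1, an inhibitory receptor of differentiated cells that binds cadherins, went another way: 6.83 CPM (5.98 to 7.77) in WT, 34.2 CPM (32.7 to 35.7) in Jα18-deficient and 13.9 CPM (12.05 to 15.95) in CD1d-deficient cells. In Jα18-deficient cells, of which 14.6% had a UMI of Klrg1, the top 5% of cells held 96.4% of its UMIs. Only 3.05% of WT and 3.36% of CD1d-deficient cells had one, so the top 5% there held all of them by necessity.

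Against WT, 3 of the 8 genes were at least 2-fold higher in Jα18-deficient cells, namely Klrc1 (2.06-fold), Klre1 (2.04-fold) and Klrg1 (5.004-fold), where 14.0% of the 10267 genes with 100 UMIs in the pair were that much higher. The fold of Klrg1 rested on few cells: its log2 ratio was 2.32 by summed UMIs and 1.40 by the mean of each cell's own CPM, and thinned to 10000 UMIs per cell it was at 29.4 CPM against 12.2 CPM in WT. None was 2-fold lower, where 7.14% of genes were. In CD1d-deficient cells 7 of the 8, all but Klrb1c, were at least 2-fold above WT, where 12.2% of 9447 genes were, and none was 2-fold lower, where 12.3% were. By summed UMIs Klrc2 was 7.14-fold, Klrb1f 3.63-fold, Klre1 3.47-fold and Klrc1 3.02-fold above WT, while Klrg1 (2.03-fold) and Klrk1 (2.04-fold) were just past the mark. Klrd1 was 2.32-fold above WT. By the mean of each cell's own CPM the log2 ratio of Klrc2 was 1.63 in place of 2.84, and that of Klrg1 0.35 in place of 1.02. Between the knockout pools, Klrc2 (5.22-fold) and Klrb1f (2.73-fold) were 2-fold higher in CD1d-deficient cells, where 9.58% of 10042 genes were, and Klrg1 was 2-fold lower (0.406-fold), where 17.8% were.

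The median log2 ratio of the 8 genes was 0.52 for Jα18-deficient over WT, against 0.13 for all genes measured. It was 1.41 against 0.01 for CD1d-deficient over WT and 0.62 against -0.13 for CD1d-deficient over Jα18-deficient cells. The pools also differed in how many cells had Cd8a, so the same counts were made within cells of like Cd8a state. Among cells without a Cd8a UMI, Klrg1 was past 2-fold in Jα18-deficient over WT cells, where 13.5% of genes were higher by that much, and Klrc1, Klre1 and Klrg1 were in CD1d-deficient over WT cells, where 12.4% were. Several genes were just under the mark there, with log2 ratios of 0.97 for Klrc1 and 0.98 for Klre1 in Jα18-deficient and 0.99 for Klrk1 in CD1d-deficient over WT cells. Among cells with a Cd8a UMI, no member was 2-fold apart between Jα18-deficient and WT cells, where 24.5% of genes were higher and Klrc1 had a log2 ratio of 0.95. Klrb1f, Klrc1, Klrc2 and Klre1 were 2-fold above WT in the CD1d-deficient cells with Cd8a, where 19.5% of genes were.

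The share of cells with a UMI is set partly by depth, so each cell was also thinned at random to 10000 UMIs, which left 523 WT, 632 Jα18-deficient and 227 CD1d-deficient cells and left out 100, 93 and 160. Klrb1c was then found in 84.7% (81.3 to 87.7), 89.9% (87.3 to 92.1) and 88.1% (83.2 to 92.0) of cells, against 92.3%, 95.6% and 92.0% at full depth. Its intervals overlapped for every pair of pools. Klrc1 was found in 51.4% (47.1 to 55.8) of thinned WT, 84.5% (81.4 to 87.2) of Jα18-deficient and 90.3% (85.7 to 93.8) of CD1d-deficient cells, against 67.6%, 95.7% and 91.0% unthinned. Klrd1 was in 61.8%, 84.8% and 90.3%, Klrk1 in 52.0%, 73.6% and 83.3%, and Klre1 in 36.5%, 68.8% and 81.9% of thinned cells, and unthinned in 79.3%, 94.3% and 92.0%, in 64.5%, 88.7% and 85.0%, and in 53.5%, 86.6% and 84.8%. For these 4 genes the WT interval lay below those of both knockout pools.

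**Figure D2:**
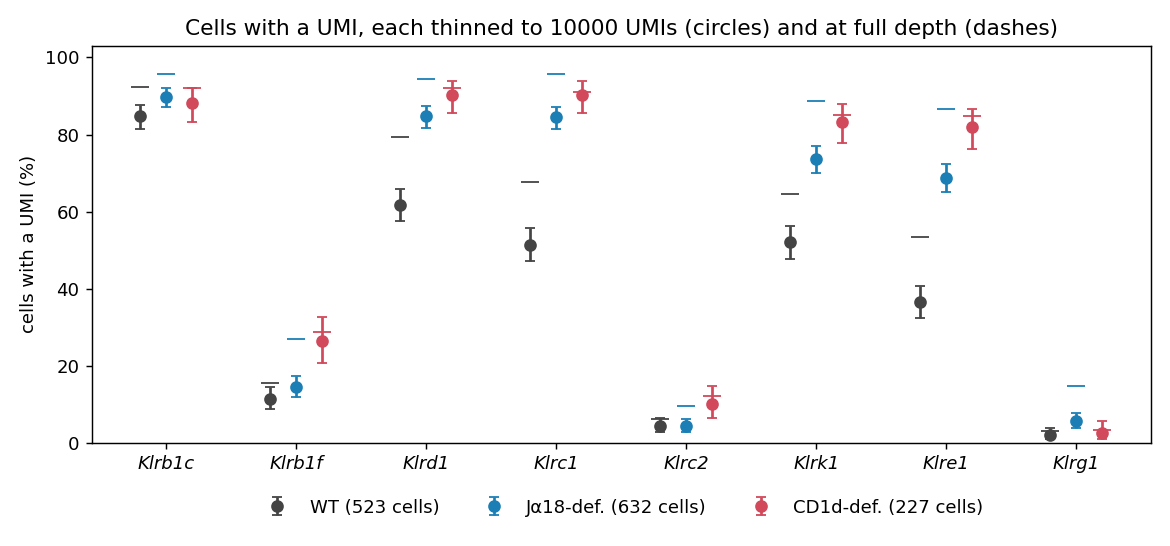
Percentage of cells with at least 1 UMI of each gene after thinning each cell to 10000 UMIs (circles with Clopper-Pearson 95% intervals) and at full depth (dashes), by pool. The WT circle of Klre1 is at 36.5%, below 68.8% and 81.9% in the Jα18-deficient and CD1d-deficient pools, whereas those of Klrb1c lie between 84.7% and 89.9%.

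Fewer cells had the other 3 genes. Klrb1f was in 11.5% (8.87 to 14.5), 14.4% (11.8 to 17.4) and 26.4% (20.8 to 32.7) of thinned cells in the WT, Jα18-deficient and CD1d-deficient pools. Klrc2 was in 4.398% (2.81 to 6.53), 4.27% (2.83 to 6.16) and 10.1% (6.53 to 14.8), and Klrg1 in 2.10% (1.05 to 3.73), 5.54% (3.89 to 7.62) and 2.64% (0.976 to 5.66). At full depth the shares were 15.4%, 26.9% and 28.7% for Klrb1f, 6.10%, 9.66% and 12.1% for Klrc2, and 3.05%, 14.6% and 3.36% for Klrg1. As a measure of stray RNA in the same thinned cells, the liver cell gene Alb was in 1.91% of WT cells and in 0 of the 632 and 227 others, which allows shares of up to 0.582% and 1.61%. The B cell gene Cd79a was in 1.91%, 0.316% and 0.441%. The myeloid gene Lyz2 was in 30.4%, 12.03% and 91.6%. The WT share of Klrg1 was thus near those of Alb and Cd79a, although 1 WT cell alone held 70 of its 233 UMIs. The shares of Klrc2 and Klrg1 lay below that of Lyz2 in all 3 pools, and that of Klrb1f did in the WT and CD1d-deficient pools. Whether Lyz2 was stray RNA was not tested.

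In thinned cells, Klrd1 and Klrc1, the chains of CD94/NKG2A, were both present in 39.4% (35.2 to 43.7) of WT, 73.4% (69.8 to 76.8) of Jα18-deficient and 84.1% (78.7 to 88.6) of CD1d-deficient cells. Neither was present in 26.2%, 4.11% and 3.52%. Cells with Klrd1 alone made up 22.4%, 11.4% and 6.17%. Of the 8 genes, the median thinned cell had 3 in WT, 4 in Jα18-deficient and 5 in CD1d-deficient cells, and at full depth 4, 5 and 5. No thinned cell had all 8, and 6 Jα18-deficient cells had them at full depth.

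The cells were next split by detection of Cd8a, the CD8 alpha chain, which some NK1.1+ T cells carry. A Cd8a UMI was found in 97 WT (15.6%, 12.8 to 18.7), 324 Jα18-deficient (44.7%, 41.0 to 48.4) and 234 CD1d-deficient cells (60.5%, 55.4 to 65.4), and in 7.65%, 19.8% and 48.9% of thinned cells. Cells with the UMI were deeper, with medians of 54592, 70901 and 22981 UMIs against 38267, 33257 and 8799 without it. Of the 655 cells with Cd8a, 254 had exactly 1 UMI. On thinned cells the split was made anew from the thinned counts, with Cd8a in 40 WT, 125 Jα18-deficient and 111 CD1d-deficient cells. Cells with few Cd8a UMIs could thus pass to the group without it, so thinned and full-depth values compare different groups. Counts were summed per pool and Cd8a state and compared by edgeR's quasi-likelihood test, with pool as a term and Benjamini-Hochberg adjustment over 10440 genes. The replicates are thus 3 pools of different genotype. With pool as a term, p-values rest on how the Cd8a difference varies between pools, not on how pools differ in level. The test also shares variance estimates between genes, so the spread of a gene's own pools can carry little weight.

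At an adjusted p of 0.05, 8 of 10440 genes (0.0766%) were called, all higher with Cd8a, and none of the 8 Klr genes was among them. At an unadjusted p under 0.05, 239 genes were higher and 259 lower, and of the 8 Klr genes Klrd1 and Klre1 were among them. The median log2 fold change of the 8 Klr genes was 0.30, against -0.01 over all genes tested.

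Klre1 came nearest. It stood at 270 CPM without and 484 CPM with Cd8a in WT, at 532 and 702 CPM in Jα18-deficient and at 679 and 1190 CPM in CD1d-deficient cells. Every pool was higher with Cd8a, but the groups overlapped between pools. The fitted log2 fold change was 0.69 (SE 0.14, adjusted p = 0.0777, edgeR).

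Klrd1 stood at 637 and 907 CPM in WT, 869 and 1142 CPM in Jα18-deficient and 1201 and 1710 CPM in CD1d-deficient cells, without and with Cd8a. It was again higher with Cd8a in all 3 pools, with a log2 fold change of 0.47 (SE 0.11, adjusted p = 0.193, edgeR). Klrc1, its partner, differed less, at 429 and 495 CPM, 839 and 955 CPM, and 1207 and 1368 CPM, a log2 fold change of 0.20 (SE 0.12, adjusted p = 0.999, edgeR). On thinned cells it was lower with Cd8a in the CD1d-deficient pool, at 1247 CPM without and 1165 CPM with it.

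The other genes did not keep 1 size or direction across pools. Klrc2 had a log2 fold change of 1.39 (SE 0.68), with the widest gap in the CD1d-deficient pool, where it stood at 7.10 CPM without and 60.1 CPM with Cd8a, against 5.69 and 11.7 CPM in WT and 8.57 and 9.84 CPM in Jα18-deficient cells. Without the CD1d-deficient pool it was 0.63. On thinned cells that pool had 24.1 CPM without and 26.1 CPM with Cd8a, and the log2 fold change was 0.26. Klrb1f stood at 68.4 and 150 CPM in the CD1d-deficient pool, at 37.4 and 32.9 CPM in WT and at 48.9 and 48.4 CPM in Jα18-deficient cells, a log2 fold change of 0.31 (SE 0.33). It turned to -0.080 without the CD1d-deficient pool, which on thinned cells had 122 and 132 CPM.

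Klrb1c had a log2 fold change of -0.02 (SE 0.13), with 704 and 804 CPM in WT, 934 and 827 CPM in Jα18-deficient and 994 and 946 CPM in CD1d-deficient cells. Klrk1 had 0.03 (SE 0.15), with 437 and 541 CPM, 699 and 547 CPM, and 869 and 947 CPM. Klrg1 had 0.28 (SE 0.62), with 4.78 and 15.5 CPM, 45.1 and 27.2 CPM, and 14.2 and 13.8 CPM. At full depth WT and Jα18-deficient cells went opposite ways with Cd8a for these genes. On thinned cells, split anew by their thinned Cd8a counts, Klrb1c was instead higher with Cd8a in all 3 pools. It stood at 758 and 818 CPM in WT, 831 and 950 CPM in Jα18-deficient and 971 and 1140 CPM in CD1d-deficient cells. Klrk1 kept its directions in WT and Jα18-deficient cells but was lower with Cd8a in the CD1d-deficient pool, at 895 and 788 CPM. The WT values of Klrg1 came from 5 cells with Cd8a and 14 without.

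**Figure D3:**
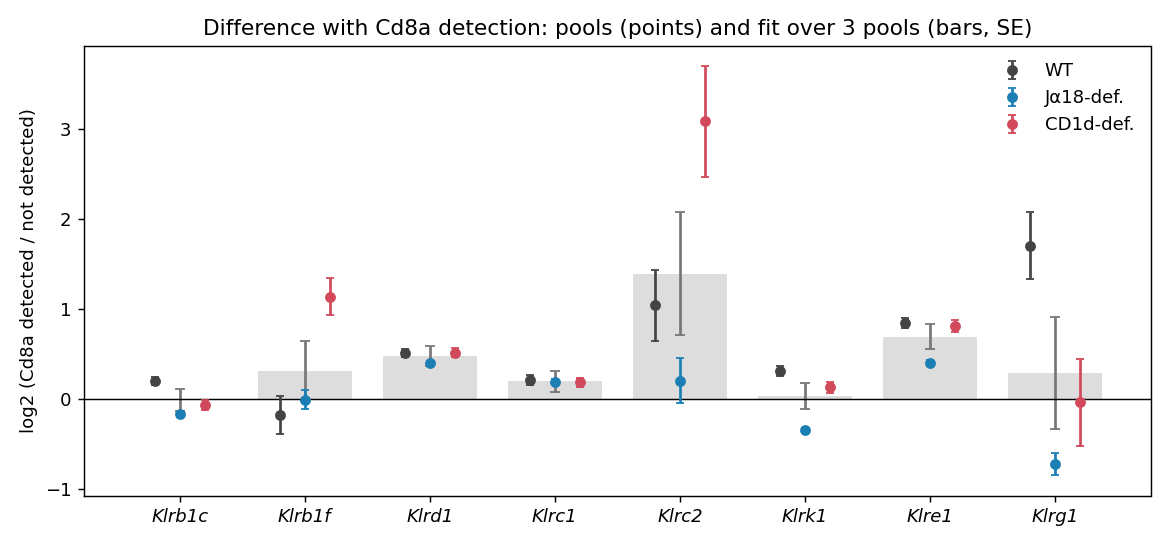
Log2 ratio of the level in cells with a Cd8a UMI over cells without one (y axis) for each gene, in each pool (points with 95% counting intervals) and as fitted by edgeR over the 3 pools (grey bars with SE). Klrd1 (0.40 to 0.51) and Klre1 (0.40 to 0.84) lie above 0 in all 3 pools, while Klrg1 runs from -0.73 in the Jα18-deficient pool to 1.70 in WT.

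The call on Klre1 and Klrd1 depended on the setting. Klre1 passed by DESeq2 (adjusted p = 0.0183), where 0.441% of genes did, and without the Jα18-deficient pool (adjusted p = 0.00192, edgeR), where 0.321% did. Both genes passed with no filter on low counts, where 0.296% of genes did. Both also passed on thinned cells, with log2 fold changes of 0.82 (SE 0.17, adjusted p = 0.0326, edgeR) for Klrd1 and 1.05 (SE 0.18, adjusted p = 0.0166, edgeR) for Klre1, where 0.783% of 7409 genes did. No other Klr gene of the 8 passed in any of these. In thinned cells Klre1 was found in 30 of 40 WT cells with Cd8a and 33.3% of those without, in 90.4% and 63.5% of Jα18-deficient cells, and in 88.3% and 75.9% of CD1d-deficient cells.

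Cells with at least 10 Cd8a UMIs (25 WT, 79 Jα18-deficient and 96 CD1d-deficient), a limit chosen after the data were seen, were then taken alone. Klrd1 was at 2085, 1686 and 1880 CPM in them and Klre1 at 1255, 1226 and 1207 CPM in the WT, Jα18-deficient and CD1d-deficient pools. These 6 values were each above that pool's cells without Cd8a, and the 3 pools stood closer together than among cells without Cd8a. Against cells without Cd8a the log2 fold change was 1.20 (SE 0.19) for Klrd1 and 1.51 (SE 0.24) for Klre1 (adjusted p = 0.0133 for each, edgeR), where 0.363% of 9358 genes were called. Klrb1c was at 1083, 1095 and 1116 CPM in these cells, with 0.44 (SE 0.17, adjusted p = 0.633, edgeR).

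With exactly 1 Cd8a UMI, Klrd1 was at 496, 931 and 1462 CPM and Klre1 at 205, 568 and 1634 CPM in the same order of pools. In WT both were below the cells without Cd8a, and in the CD1d-deficient pool Klre1 was above the cells with 10 or more. Log2 fold changes were 0.09 (SE 0.15) for Klrd1 and 0.40 (SE 0.25) for Klre1, and edgeR called 0 genes in this comparison, with 169 higher and 196 lower at an unadjusted p under 0.05.

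**Figure D4:**
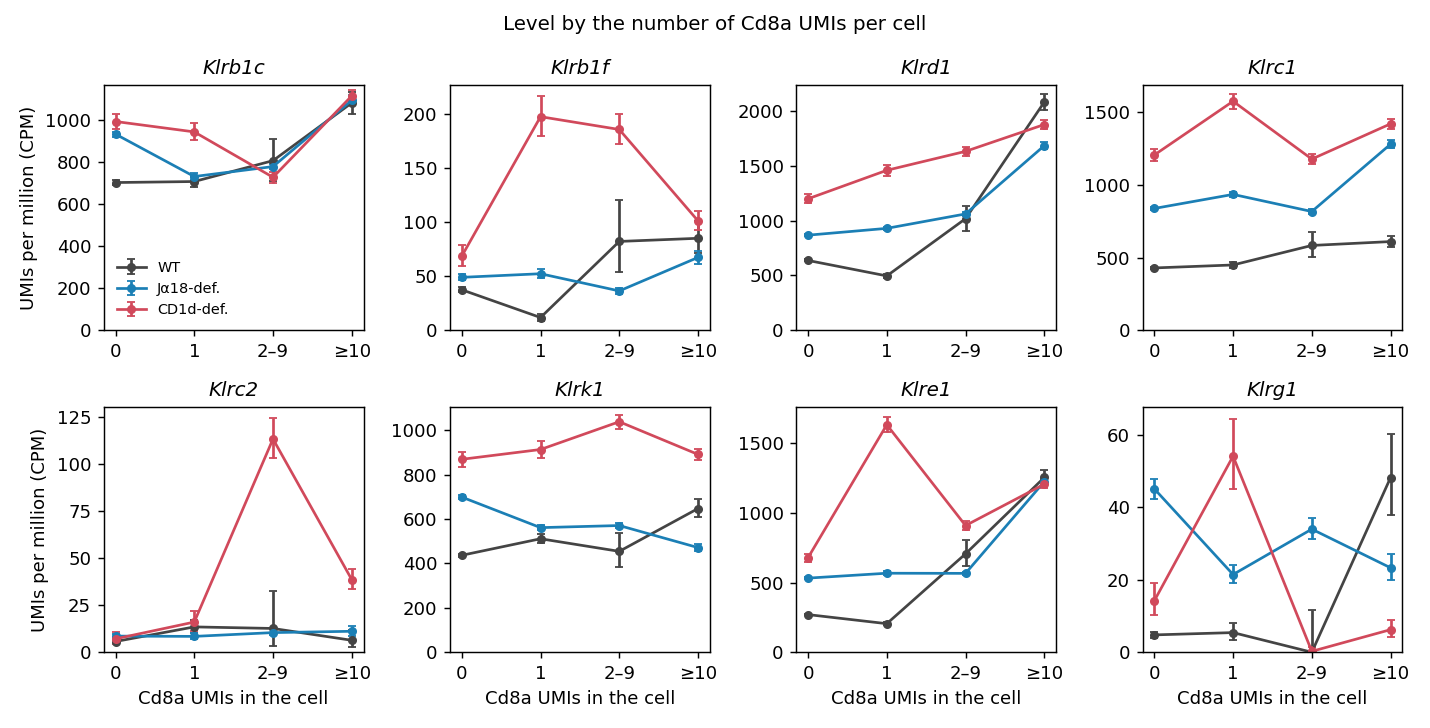
Level of each gene in CPM (y axis, from 0) in cells with 0, 1, 2 to 9 or at least 10 Cd8a UMIs (x axis), by pool, with Poisson 95% intervals. At 10 or more UMIs the 3 pools meet for Klrb1c (1083 to 1116 CPM) and Klre1 (1207 to 1255 CPM), whereas Klrc1 stays apart (611, 1281 and 1422 CPM).

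Klre1 and Klrd1 were also higher in cells with a UMI of any Ly49 gene, as was Klrb1f in all 3 pools. There were 290, 665 and 334 such cells in the WT, Jα18-deficient and CD1d-deficient pools, and 333, 60 and 53 without Ly49. The cells without Ly49 held 15289968, 1580427 and 903375 UMIs in all, against 18812726, 58903825 and 13633210 with it. No thinned values were made for this split, so the part of depth in it was not tested. Klre1 was at 438, 644 and 1136 CPM in Ly49-detected cells of the WT, Jα18-deficient and CD1d-deficient pools and at 155, 318 and 246 CPM in the rest. Klrd1 was at 792, 1049 and 1674 CPM with Ly49 and at 562, 534 and 503 CPM without it. Klrb1f was at 45.1, 49.5 and 136 CPM with Ly49 and at 26.0, 16.5 and 86.3 CPM without it. Its Jα18-deficient value without Ly49 came from 26 UMIs. Klrc1, Klrc2, Klrk1 and Klrg1 are not described for this split. No share over all genes was computed, so the difference is not shown to be particular to these genes. By summed UMIs Klrb1c was higher with Ly49 in the Jα18-deficient pool and lower in the others. It stood at 717, 876 and 952 CPM with Ly49 and at 730, 596 and 1031 CPM without it. By the mean of each cell's own CPM it was higher with Ly49 in all 3 pools. Those means were 826, 835 and 1025 CPM with Ly49 and 758, 571 and 996 CPM without it.

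Across cells within a pool, levels were related only moderately. Pearson's r was computed on ln(1 + UMIs per 10000) over 623 WT, 725 Jα18-deficient and 387 CD1d-deficient cells that share depth and library effects, and is given as a description. In WT, Klrc1, Klrk1, Klre1 and Klrd1 moved together, with r of 0.51 for Klrc1 and Klrk1, 0.51 for Klrk1 and Klre1, 0.50 for Klrc1 and Klre1 and 0.48 for Klrd1 and Klre1. The first of these was 0.18 in Jα18-deficient and 0.11 in CD1d-deficient cells, and 0.50, 0.13 and 0.07 after thinning. Klrd1 with Klre1 stayed at 0.39 and 0.42 in the knockout pools. Klrb1c, the sorted antigen, had r of at most 0.17 with any other member, and Klrg1 of at most 0.14.

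**Figure D5:**
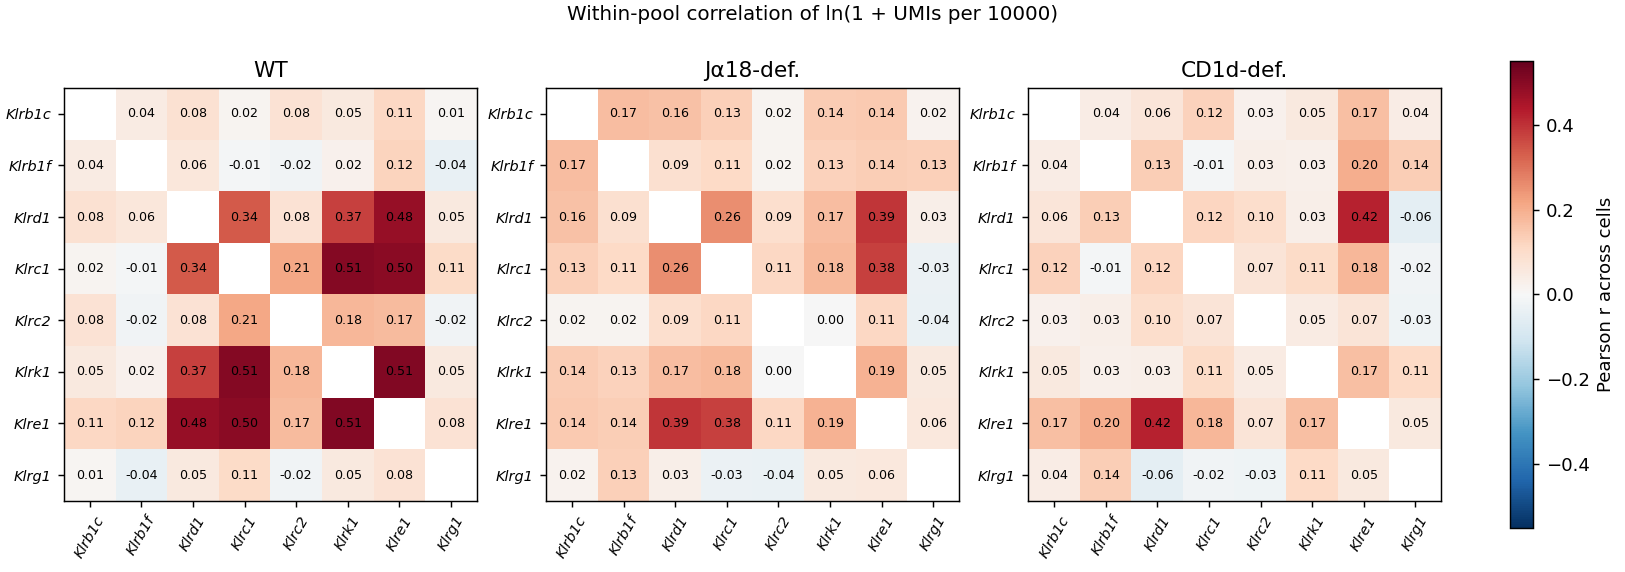
Pearson's r across cells for each pair of the 8 genes within the WT, Jα18-deficient and CD1d-deficient pools, with red for positive values. Klrc1 with Klrk1 is at 0.51 in WT, 0.18 and 0.11, and Klrd1 with Klre1 is at 0.48, 0.39 and 0.42.

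Among 6736 genes found in 5% or more of each pool's cells, the genes most like each member were named by their mean r over the 3 pools. For Klre1 they were Fcer1g (0.48), Cd7 (0.46) and Tyrobp (0.45), and for Klrd1 they were Klre1 (0.43), Fcer1g (0.42) and Cd7 (0.42). Fcer1g encodes the Fc receptor gamma chain, Tyrobp encodes DAP12, and Cd7 is a surface protein of T and NK cells. For Klrc1 they were Klre1 (0.35), Klrk1 (0.26) and Klrd1 (0.24), and for Klrk1 they were Klre1 (0.29), Klrc1 (0.26) and Klrd1 (0.19). Klrb1f was nearest to Ncr1 (0.21), which encodes NKp46, and to Ccl5 (0.17) and Tyrobp (0.16). The highest values were 0.16 for Klrb1c (Gzmb), 0.13 for Klrc2 (Klrc1) and 0.16 for Klrg1 (Gzma), and these, like those of Klrb1f, are weak.

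The adaptors and signalling genes of these receptors were not shared evenly. Of 11, 2 were called higher with Cd8a and 0 lower by edgeR, where 0.0766% of all genes tested were called higher and 0 lower. The median log2 fold change was 0.001 against -0.01 over all genes. Tyrobp had 1.41 (SE 0.21, adjusted p = 0.00459, edgeR) and Fcer1g had 1.14 (SE 0.19, adjusted p = 0.0143, edgeR). Hcst, which encodes DAP10, the partner of NKG2D, had 0.001 (SE 0.13), and Cd247, Zap70 and Lck, which carry the T cell receptor signal, had -0.01, -0.002 and 0.11. By pool, Tyrobp was at 399, 1169 and 2543 CPM and Fcer1g at 481, 1371 and 2790 CPM in WT, Jα18-deficient and CD1d-deficient cells. Hcst was at 990, 1095 and 1015 CPM. At least 2-fold above WT were 3 of the 11 in Jα18-deficient and 4 in CD1d-deficient cells, and 0 were 2-fold below, where 14.0% and 12.2% of all genes were above and 7.14% and 12.3% below.

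Other Klr genes were scarce. Of 8 listed, 7 were in the matrix and 5 were tested with Cd8a, with a median log2 fold change of 1.05. Of these, 0 were called, where 0.0766% of all genes tested were. At least 2-fold above WT were 4 of 5 measured in Jα18-deficient and 4 of 4 in CD1d-deficient cells. Over all genes these shares were 14.0% and 12.2%. Klri2, a partner chain of Klre1, was at 3.93, 23.8 and 54.5 CPM and Klri1, the other partner, at 0.0586, 2.30 and 11.2 CPM in the WT, Jα18-deficient and CD1d-deficient pools, both in the same order as Klre1. The WT value of Klri1 was below 0.0880 CPM, the level of 3 UMIs in that pool, so its size is uncertain. Klrb1a was at 7.27, 33.3 and 48.02 CPM. Of 16 ligand genes, 14 were in the matrix, 6 had no UMI in any cell, and 7 were tested with 0 called. With 0.0766% of all genes called, 0 calls in lists this short carry little information. H2-T23, which encodes Qa-1, was at 289, 268 and 294 CPM. Cdh1, the cadherin bound by KLRG1, was at 0.117, 1.92 and 8.05 CPM, and its WT value too rests on few UMIs. H60b, a ligand of NKG2D, was at 28.2, 11.1 and 9.29 CPM and was 2-fold below WT in both knockout pools. Of 7 ligand genes measured, 1 was 2-fold lower and 1 was 2-fold higher in each knockout pool over WT. Over all genes, 7.14% (Jα18-deficient) and 12.3% (CD1d-deficient) were that much lower, and 14.0% and 12.2% higher.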

How the data were processed

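The deposited matrix holds UMI counts per gene and cell. According to the methods and processing notes, the authors used cutadapt 1.15 to trim, TopHat2 2.0.12 to align to mm9 transcripts, UMIs to collapse duplicates and HTSeq 0.10.0 to count. The values were whole and not normalized. The stated filter (over 500 genes and 10000 to 600000 transcripts) was not met by 353 of the 1735 cells, all below 10000 UMIs. All cells were kept, and no doublet caller was run on these hand-picked cells.

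The 8 genes and the lists were chosen with earlier results of these data known. Adaptor, ligand and other Klr genes came from lists, and 3 genes per member were named for likeness. Groups came from the labels through the prefix of the cell names. Intervals were Poisson for CPM and Clopper-Pearson for shares, both at 95%, and a count of 0 was set to 3 in ratios. Counts summed over 3 pools and 2 Cd8a states (6 sums) were tested with edgeR 4.0.16 (TMM, filterByExpr) in R 4.3.3, without Cd8a itself. The test was also run on simulated counts in which all pools shared a mean per gene. That run cannot show how the test performs where pools differ. DESeq2 1.42.0, no filter, other Cd8a limits, thinning (seed 1), the stated filter, no pool term and leaving out each pool were alternatives. Python 3.11.15, scipy 1.17.1 and matplotlib 3.10.9 gave the other values and the plots. NCBIM37 with GENCODE M1 gave positions and sequences, and may differ from the authors' annotation.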

Additional observations from a re-analysis of the deposited data

Results flagged for a closer look

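For 3 genes the level went opposite ways with Cd8a detection in different pools, with counting intervals that did not include 0. The difference between pools was not tested, since each genotype is 1 pool. Klrb1c had a log2 ratio of cells with over cells without Cd8a of 0.19 in WT, against -0.18 in Jα18-deficient and -0.071 in CD1d-deficient cells. This was not so on cells thinned to 10000 UMIs and split anew by their thinned Cd8a counts. There Klrb1c was higher with Cd8a in all 3 pools (818 against 758 CPM in WT, 950 against 831 CPM in Jα18-deficient and 1140 against 971 CPM in CD1d-deficient cells). The parts of depth and of the new split were not tested. Klrk1 had 0.31 in WT and 0.12 in CD1d-deficient cells, against -0.35 in Jα18-deficient cells, and on thinned cells it was lower with Cd8a in the CD1d-deficient pool too (788 against 895 CPM). Klrg1 had 1.70 in WT against -0.73 in Jα18-deficient cells, on 233 and 2068 UMIs. In WT, 101 of these UMIs were in 5 cells with Cd8a, and 1 of those cells held 70.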

How the results depend on the processing

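The number of Klr genes at least 2-fold apart moved with the cells used. For Jα18-deficient over WT it was 3, and 1 in cells without Cd8a, 0 in cells with Cd8a, 1 by the mean of each cell's own CPM and 1 at 3-fold. Klrc1 stayed just under the mark in the first 3 of these, at log2 ratios of 0.97, 0.95 and 0.97. Klre1 had 0.98, 0.54 and 0.79 there. Of all genes measured, 14%, 13.5%, 24.5%, 12% and 7.13% were that much higher in these 5 counts. For CD1d-deficient over WT it was 7, and 3, 4 and 4 in cells without Cd8a, in cells with Cd8a and at 3-fold. All were higher, as were 12.2%, 12.4%, 19.5% and 5.65% of all genes. For CD1d-deficient over Jα18-deficient it was 3, and 1 in cells without Cd8a, 6 at 1.5-fold and 1 at 3-fold. Of all genes, 9.58%, 11.6%, 18.1% and 4.44% were higher there and 17.8%, 22.7%, 28.5% and 9.78% lower. Klrg1 over WT turned to -0.17 (log2) in CD1d-deficient cells with Cd8a, and Klrc2 over Jα18-deficient cells to -0.27 without Cd8a. Calls with Cd8a, 8 genes and 0 Klr genes by edgeR, were 46 and 1 by DESeq2, 43 and 2 with no filter, 58 and 2 on thinned cells, 5 and 0 within the stated filter, 0 and 0 without a pool term (162 higher and 173 lower at an unadjusted p under 0.05), 34 and 2 at 10 or more Cd8a UMIs and 0 and 0 at exactly 1, the last 2 chosen after the data were seen. Leaving out a pool gave 10 (without CD1d-deficient) to 32 genes (without Jα18-deficient), 19 without WT, and 0 to 1 Klr genes. Klrb1c, at -0.02, turned to 0.17 at 2 or more Cd8a UMIs, 0.17 when thinned and 0.44 at 10 or more, and ranged from -0.16 to 0.080 without a pool. Klrg1 turned to -0.17 without a pool term and ranged from -0.43 to 0.85 without a pool, Klrk1 from -0.15 to 0.24 and Klrb1f from -0.080 to 0.52. Klrd1, Klre1, Klrc1 and Klrc2 kept a positive sign in every alternative run. The causes were not tested. No paired analysis was possible because the cell names carry none of the library replicate numbers, and the pool term already pairs the Cd8a states of a pool. Klrc2 and Klrg1 rested on 202 to 2068 UMIs per pool, nearly all from few cells, which limits them. The log2 fold change of Klrc2 with Cd8a, 1.39, was 0.26 on thinned cells.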
